A study of Mus musculus with 14 samples.

Results

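The genes described here are Fto and Alkbh5, the m6A erasers, Mettl16, the second m6A methyltransferase of vertebrate nuclei, and 5 genes of S-adenosylmethionine supply and use, Mat2a, Mat2b, Mat1a, Ahcy and Gnmt. They were picked by gene symbol, 8 of the 54446 genes listed, and all 8 passed the filter on low values. RNA was measured in flash-frozen whole livers of C57BL/6 mice 5 weeks old. There were 8 knockout libraries, from livers that carry floxed Mettl3 with the Alb-Cre transgene. The 6 control libraries were from livers that carry floxed Mettl3 with no Cre named. The albumin promoter drives Cre mainly in hepatocytes, so cells of other lineages are not targeted, though bile duct cells that share a precursor with hepatocytes may be. The controls do not show what Cre alone does. The labels number the libraries without saying that each comes from a separate mouse, so p-values measure the spread between these libraries. They are called knockout and control livers below for short. Which exons were flanked by loxP sites is not given in the sources used here.

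Most of the N6-methyladenosine, m6A, in messenger RNA is placed by the complex of METTL3 and METTL14, with S-adenosylmethionine as the methyl donor. FTO and ALKBH5 can remove m6A again by oxidation. METTL16 methylates U6 small nuclear RNA and hairpins in the 3′ UTR of MAT2A mRNA, and in mammalian cells short of S-adenosylmethionine its binding there favours removal of a retained intron, which raises MAT2A mRNA. Mature hepatocytes make S-adenosylmethionine mostly with MAT1A, while MAT2A with its regulatory partner MAT2B serves fetal liver, dividing cells and most other tissues. GNMT, an abundant liver enzyme, uses up S-adenosylmethionine by methylating glycine, and AHCY breaks down S-adenosylhomocysteine, the product of every such methyl transfer and an inhibitor of methyltransferases.

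The sites at which METTL16 is known to act on MAT2A are shown first, because they tie these genes together. The 3′ UTR of mouse Mat2a-201, 1494 bases long, was searched on the transcript strand for the METTL16 motif TACAGAGAA and its variant TACAGAAAA. It holds 5 copies of the first and 1 of the second, with no overlap between them. The windows of 30 bases lie on the minus strand of chromosome 6 in GRCm38, with sequence from the GENCODE M21 transcripts, and capitals mark the motif.

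Mat2a site at chr6:72434234-72434263: tggcgtaggtTACAGAGAAgccttcaagct
Mat2a site at chr6:72433450-72433479: ccttgtgataTACAGAGAAgtcacagggca
Mat2a site at chr6:72433271-72433300: ctggtgtagcTACAGAGAAaccagcttcct
Mat2a site at chr6:72433156-72433185: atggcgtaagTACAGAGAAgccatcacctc
Mat2a site at chr6:72433045-72433074: caaggtgtccTACAGAAAAaccttgggtta
Mat2a site at chr6:72432937-72432966: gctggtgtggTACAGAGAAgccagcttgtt

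Of 3356 mouse 3′ UTRs within 25% of this length, 75 (2.23%) hold TACAGAGAA and 133 (3.96%) hold either motif. Among all 20738 annotated 3′ UTRs, Mat2a is the only 1 with at least 5 copies of TACAGAGAA. None of the other 7 genes holds either motif in the 3′ UTR of its principal transcript. A match is a description of the letters and not evidence of methylation in these livers.

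Mettl3 itself was checked first. Its value, a normalised estimated count, had a lowest, median and highest of 76.9, 99.1 and 122 in knockout livers and 199, 219 and 263 in control livers. All 8 knockouts lay below every control, and the fitted log2 change was -1.17, with a limma adjusted p of 1.32e-05. Each library thus had the Mettl3 level its label calls for, and 44.5% of the control level remained in whole liver. In bulk tissue, fewer cells of a type and less RNA per cell cannot be told apart.

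Across all 23554 genes tested, limma called 2697 (11.5%) higher and 2583 (11.0%) lower in the knockout livers at an adjusted p of at most 0.05, and the median log2 change was 0.05. Of the 8 genes, 1 (Mettl16) was called higher, 2 (Ahcy and Gnmt) were called lower and 5 were not called, and counts of this size among 8 genes do not set the group apart from that background. These counts depend on the deposited scaling, under which knockout libraries summed to 16.8 to 20.7 M and controls to 21.5 to 27.6 M, where M is 1e6. After scaling the libraries to the same total without ribosomal RNA (called equal sums here), the median change moved by 0.33 and 90.0% of the genes called were higher, against 51.1% with the deposited scaling. Estimated depth was 11.1 to 33.8 M reads. By sex-linked transcripts, 8 libraries (knockouts 1 to 4, controls 1 to 4) were Y-positive and 6 (knockouts 5 to 8, controls 5 and 6) were Xist-high, a split that the labels do not name and that runs with depth, which was 11.1 to 19.3 M reads in Xist-high libraries and 24.3 to 33.8 M in Y-positive ones. Knockouts 3, 6 and 7 stood apart from the other knockouts, with Cdkn1a values of 481, 520 and 549.6, against at most 162 in the other knockouts and 41.1 in controls.

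**Figure D1:**
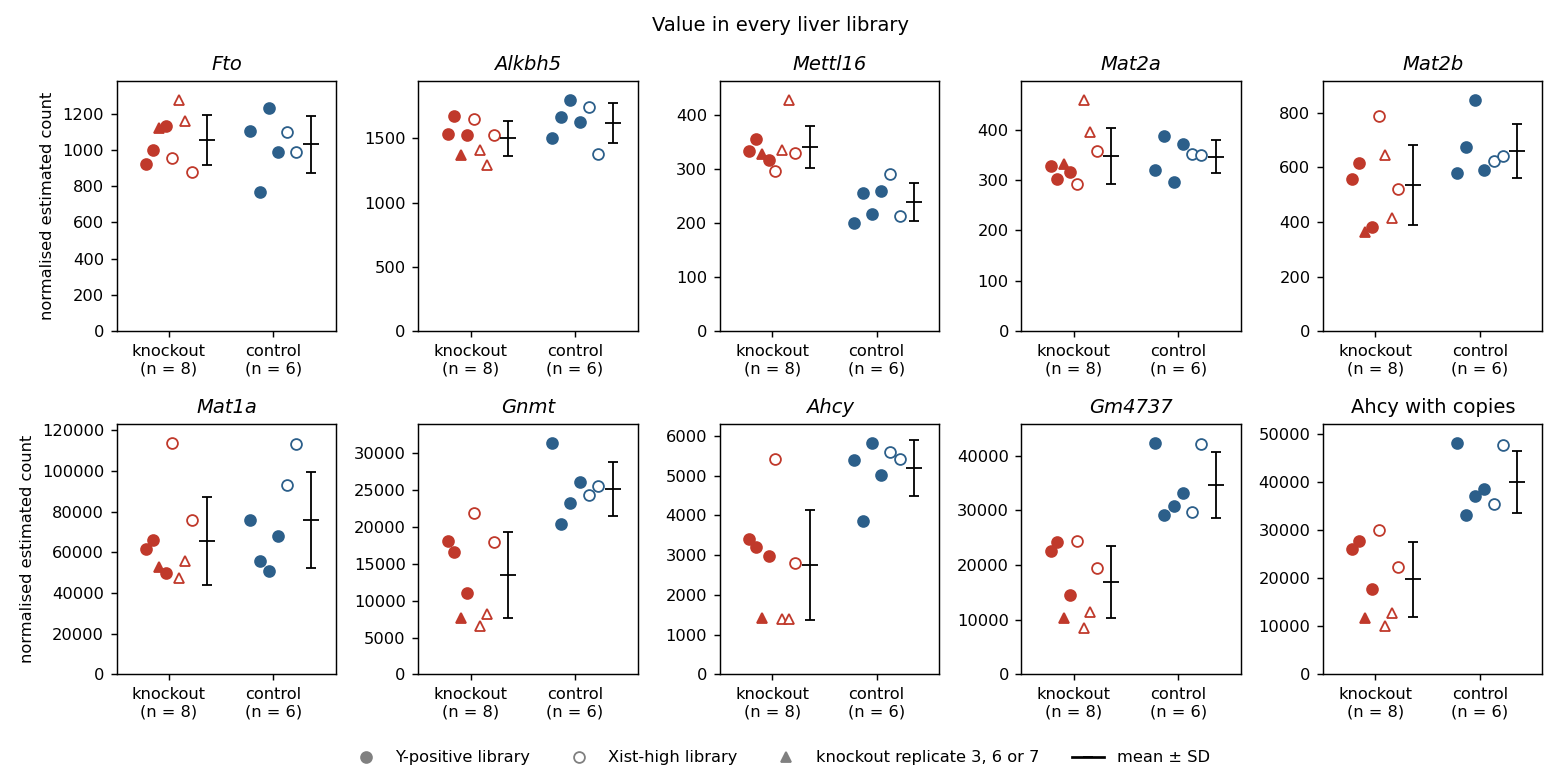
Normalised estimated counts (linear axes from 0) of the 8 genes, of the Ahcy retrogene Gm4737 and of Ahcy summed with its copies, in 8 knockout and 6 control livers; points are libraries, filled for Y-positive and open for Xist-high, triangles are knockouts 3, 6 and 7, and the bar is the mean with SD. The groups do not overlap for Mettl16, Gm4737 and summed Ahcy, and overlap only through knockout 5 for Gnmt and Ahcy. The share of all genes tested whose groups do not overlap was not counted, so separation is not read as particular to these genes.

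The erasers showed no difference that passed the test. Fto (chr8:91313525-91668439, plus strand, GRCm38), an RNA demethylase also active on the m6Am next to the cap, had a lowest, median and highest value of 879.8, 1059 and 1278 in knockout livers and 767, 1046 and 1231 in control livers. The ranges overlapped almost fully, with 1 knockout above the highest control and none below the lowest. Fitted across all genes, the log2 change was 0.04 (SE 0.11, 95% interval -0.20 to 0.28, limma adjusted p = 0.841). Under equal sums the change of Fto was 0.38 and was called (limma adjusted p = 0.0353), beside the shift of 0.33 in the median of all genes. Without knockouts 3, 6 and 7 it was -0.07.

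Alkbh5 (chr11:60536381-60558512, plus strand), a nuclear demethylase, had a lowest, median and highest value of 1296, 1527 and 1676 in knockout livers and 1375, 1648 and 1802 in control livers. Knockouts 3 and 7 were the only ones below the lowest control, and none was above the highest. Its log2 change of -0.11 (SE 0.09, 95% interval -0.30 to 0.07, limma adjusted p = 0.394) turned to 0.23 under equal sums, where it was called (limma adjusted p = 0.0435), and to 0.00 under quantile normalization. The direction of Alkbh5 and the call of both erasers thus depended on how the libraries were scaled. The log2 ratio of Fto to Alkbh5 within a library, which does not depend on the size factor, averaged -0.51 ± 0.29 (SD, n = 8) in knockouts and -0.66 ± 0.25 (SD, n = 6) in controls. The 4 highest ratios belonged to knockouts 3, 4, 6 and 7, and the other 4 knockouts lay within the control range.

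Mettl16 (chr11:74770830-74828525, plus strand) was higher in the knockout livers. Its lowest, median and highest values were 296, 332 and 428 in knockout livers and 200.2, 236 and 290.4 in control livers. Every knockout lay above every control, the closest pair being knockout 5 at 296 and control 5 at 290.4, and knockout 7 was the highest. The knockout mean was 340.3 ± 39.3 (SD, n = 8), 143% of the control mean of 239 ± 34.6 (SD, n = 6) by the fitted change.

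The log2 change of Mettl16 was 0.51 (SE 0.11, 95% interval 0.29 to 0.74, limma adjusted p = 0.00303). It was 0.46 without knockouts 3, 6 and 7 (limma adjusted p = 0.0134), 0.85 under equal sums and 0.49 under quantile normalization, and it was called under each of these. In the Y-positive libraries alone the change was 0.52 (SE 0.12, n = 4 and 4, limma adjusted p = 0.0212). In the Xist-high libraries alone, with 4 knockouts and 2 controls, it was 0.47 (SE 0.22) and was not called (limma adjusted p = 0.334). Per kilobase of principal transcript, Mettl16 had the lowest level of the 8 genes in both genotypes, 27.0 ± 3.12 in knockouts and 19.0 ± 2.75 in controls, and its annotated transcript of 12584 bases is mostly 3′ UTR.

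Mat2a (chr6:72432799-72439558, minus strand), the target of METTL16 and the methionine adenosyltransferase of dividing cells, showed no difference that passed the test. Its lowest, median and highest values were 291, 329.9 and 459 in knockout livers and 297, 350.1 and 388 in control livers. Knockouts 6 and 7, at 459 and 394, were the only ones above the highest control, and knockout 5 the only one below the lowest. The log2 change of Mat2a was -0.00 (SE 0.11, 95% interval -0.24 to 0.23, limma adjusted p = 0.987), so a change in either direction of more than about 0.24 lies outside the interval under the deposited scaling. Under equal sums it was 0.33 (limma adjusted p = 0.0672), the same as the shift in the median of all genes.

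The log2 ratio of Mat2a to Mettl16 averaged 0.02 ± 0.20 (SD, n = 8) in knockouts and 0.54 ± 0.16 (SD, n = 6) in controls. In 7 of 8 knockouts it was below the lowest control ratio of 0.27, and knockout 6, at 0.46, was the exception. With Mat2a changed by -0.0032, this difference restates the Mettl16 change of 0.51 and is not a separate result. This ratio was not among those planned. The Mat2a values are per gene and do not separate spliced from intron-retaining transcripts, so the intron retention through which METTL16 is known to act was not analysed here. Particl, annotated on the strand opposite Mat2a, shares 508 of the 4486 exonic bases of Mat2a and averaged 16.9 in knockouts and 23.3 in controls, and the strand setting of the counting is not given in the sources used here. A processed Mat2a pseudogene, Gm9523, is 95.6% identical over 1164 bases and did not exceed 5.76 in any library.

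Mat2b (chr11:40679314-40695203, minus strand), the regulatory subunit that binds MAT2A, had a lowest, median and highest value of 363, 539.6 and 788 in knockout livers and 580.4, 633 and 848 in control livers. Knockouts 1, 3, 4, 7 and 8 lay below the lowest control. On the log2 scale Mat2b differed by -0.33 (SE 0.17, 95% interval -0.69 to 0.02, limma adjusted p = 0.167) and 0.01 under equal sums.

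Mat1a (chr14:41105035-41124412, plus strand), the liver form, had by far the highest values of the 3, with a lowest, median and highest of 47561, 58651 and 113771 in knockout livers and 50598, 71800 and 113016 in control livers. The spread within each genotype was wide. Both Xist-high controls, at 92835 and 113016, exceeded the 4 Y-positive controls, at 50598 to 75625. The knockouts did not divide this way, since Xist-high livers held both the highest (knockout 5) and the lowest value (knockout 6), and knockout 7, at 55719, lay below the Y-positive knockouts 1 and 2, at 61582 and 65890.2. The log2 change of Mat1a was -0.21 (SE 0.23, 95% interval -0.69 to 0.26, limma adjusted p = 0.535), 0.12 under equal sums and 0.38 under quantile normalization, and it was not called under any of them. Single libraries moved it too, to -0.089 without control 6 and -0.34 without knockout 5, while Mat1a was -0.049 without knockouts 3, 6 and 7 and -0.42 with depth as a covariate.

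Mat1a levels per kilobase were 18860 ± 6235 in knockouts and 21895 ± 6802 in controls, against 124 ± 19.8 and 123 ± 11.8 for Mat2a. The log2 ratio of Mat2a to Mat1a, here on values not divided by length, was -7.51 ± 0.56 (SD, n = 8) in knockouts and -7.72 ± 0.44 (SD, n = 6) in controls, and the ranges overlapped. Knockouts 6 and 7 had the highest ratios, -6.69 and -7.14, and knockout 5 had the lowest, -8.61. In every library of both genotypes the Mat1a value was far above that of Mat2a.

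Gnmt (chr17:46725664-46729168, minus strand), the glycine N-methyltransferase that consumes S-adenosylmethionine in hepatocytes, was lower in the knockout livers. Its lowest, median and highest values were 6586, 13824 and 21867 in knockout livers and 20408, 24868 and 31383 in control livers. Only knockout 5, the highest knockout, reached into the control range, and it exceeded control 2 alone. Knockouts 3, 6 and 7, at 7598, 6586 and 8155, were the 3 lowest libraries.

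The log2 change of Gnmt was -1.02 (SE 0.26, 95% interval -1.57 to -0.46, limma adjusted p = 0.0115), which left 49.4% of the control level. Without knockouts 3, 6 and 7 it was -0.58 (SE 0.16, limma adjusted p = 0.0276) and was called. These knockouts, which stood apart by Cdkn1a, also had the lowest Gnmt. Deviations of Gnmt and Cdkn1a from the genotype mean had a Pearson r of -0.95 over 14 libraries. Leaving them out is thus not independent of Gnmt and also narrows its spread. Under equal sums the change of Gnmt was -0.68 and was called (limma adjusted p = 0.0324). Under quantile normalization, which forces the same distribution on every library, it was -0.52 and the call was lost (limma adjusted p = 0.151). In the Y-positive libraries alone it was -0.98 (SE 0.27, limma adjusted p = 0.0377), and in the Xist-high ones -1.05 (SE 0.49, limma adjusted p = 0.330).

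Ahcy (chr2:155059310-155074497, minus strand), which encodes S-adenosylhomocysteine hydrolase, was lower as well. Its lowest, median and highest values were 1390.1, 2884 and 5413 in knockout livers and 3851, 5412 and 5825 in control livers. Knockouts 3, 6 and 7 were again the lowest, at 1420, 1390.1 and 1395, and knockout 5 again lay among the controls while the other 7 knockouts were below all of them. Ahcy changed by -1.06 on the log2 scale (SE 0.28, 95% interval -1.65 to -0.47, limma adjusted p = 0.0127), and -0.57 (SE 0.16, limma adjusted p = 0.0285) without knockouts 3, 6 and 7. As for Gnmt, leaving them out is not independent of the gene's own level (Pearson r of deviations with Cdkn1a -0.95). The change was -0.72 under equal sums and -0.85 under quantile normalization, and was called under both (limma adjusted p = 0.0338 and 0.0388). In the Y-positive libraries alone it was -0.93 (limma adjusted p = 0.0426), and in the Xist-high ones -1.24 and not called (limma adjusted p = 0.283).

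The Ahcy value alone is uncertain, because the single-exon retrogene Gm4737 (chr16:46152985-46155077, minus strand) is 99.7% identical to the Ahcy transcript over 2083 of its 2543 bases. The deposited counts give Gm4737 85.5% of the summed value of Ahcy and its 3 copies in knockouts and 86.2% in controls, and Ahcy 13.6% and 13.1%. The split between them was thus nearly the same in both genotypes, and reads of Ahcy may have been credited to Gm4737. Gm4737 had a lowest, median and highest value of 8506, 17019 and 24449 in knockout livers and 29245, 32097 and 42396 in control livers, with no overlap. It changed by -1.12 on the log2 scale (SE 0.24, limma adjusted p = 0.00425), and by -0.57 with no call under quantile normalization (limma adjusted p = 0.101).

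Summed over Ahcy, Gm4737 and the pseudogenes Gm9826 and Gm5638, a quantity that does not depend on that split, the value was 10022, 20092 and 30033 (lowest, median, highest) in knockout livers and 33294, 37831 and 48270.1 in control livers. All 8 knockouts were below every control, and the log2 change was -1.11 (SE 0.25, 95% interval -1.63 to -0.58, limma adjusted p = 0.00481). The change of the sum was -0.70 without knockouts 3, 6 and 7, again the lowest ones (limma adjusted p = 0.00797), and -0.77 under equal sums (limma adjusted p = 0.0137). Its call was lost under quantile normalization, at -0.61 (limma adjusted p = 0.0823), and in the Xist-high libraries alone, at -1.26 (limma adjusted p = 0.224). The log2 ratio of Gnmt to this sum averaged -0.58 ± 0.13 (SD, n = 8) in knockouts and -0.67 ± 0.13 (SD, n = 6) in controls. The ranges of that ratio overlapped although the level of both genes spanned several fold.

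**Figure D2:**
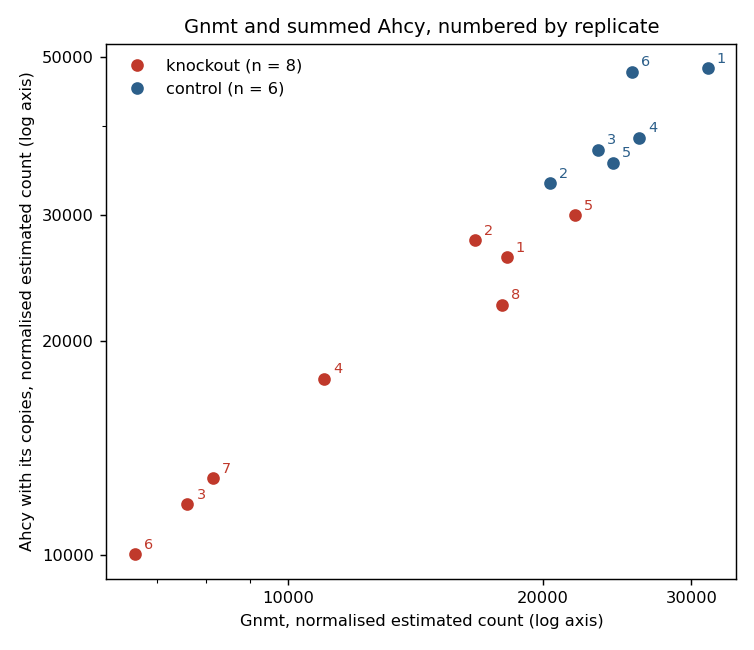
Gnmt (x) against Ahcy summed with its copies (y), both normalised estimated counts on log axes, in 8 knockout and 6 control livers, each point labelled with its replicate number. The libraries spread along a diagonal from knockout 6, at 6586 and 10022, to control 1, at 31383 and 48270.1, with knockout 5 closest to the controls.

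Because Gnmt and Ahcy were both called lower, their promoters are printed, each 250 bases before and 50 after the RefSeq start (GRCm38.p6), 5′ to 3′ in the direction of transcription. They were searched on both strands for CCAAT, the GC box GGGCGG, the TATA box TATAAA, the E-box CACGTG and the D-box TTATGTAA of clock-regulated genes, none of which overlap in these windows. Capitals mark the matches, which here all lie on the reverse strand.

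Gnmt promoter at chr17:46729116-46729415: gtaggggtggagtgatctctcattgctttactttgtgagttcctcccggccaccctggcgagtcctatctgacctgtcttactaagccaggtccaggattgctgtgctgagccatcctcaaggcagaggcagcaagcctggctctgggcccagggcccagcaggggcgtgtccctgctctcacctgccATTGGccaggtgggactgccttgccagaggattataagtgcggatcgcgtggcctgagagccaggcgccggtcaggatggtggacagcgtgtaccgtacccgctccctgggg
Ahcy promoter at chr2:155074448-155074747: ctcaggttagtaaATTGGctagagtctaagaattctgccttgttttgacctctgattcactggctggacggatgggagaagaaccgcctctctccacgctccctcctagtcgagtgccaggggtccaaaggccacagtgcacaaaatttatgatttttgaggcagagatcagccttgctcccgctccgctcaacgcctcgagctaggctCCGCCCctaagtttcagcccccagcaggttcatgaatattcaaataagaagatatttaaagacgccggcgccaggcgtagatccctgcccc

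Both hold CCAAT, found in 37.4% of the 32851 promoters of the same length, at -62 in Gnmt and -237 in Ahcy from the start. Ahcy also holds a GC box at -41, found in 35.7% of all promoters. The E-box (7.15% of promoters) and the D-box (0.938%) were in neither window, nor in those of Fto, Alkbh5, Mettl16, Mat2a and Mat2b. A promoter of Mat1a was not used here.

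Markers of hepatocytes, the cells in which Gnmt and Mat1a are mainly expressed, were lower too with the deposited scaling. Of 10 markers 7 were called lower and none higher, beside 11.0% of all genes called lower and 11.5% called higher. Under equal sums 5 were lower and under quantile normalization 2, beside 867 and 2410 of the 23554 genes tested. The summed value of the 10 markers was 492223 to 834967 in knockouts and 877149.9 to 1044744 in controls, with the lowest sums in knockouts 3, 6 and 7. The mean of that sum was 650963 ± 134939 (SD, n = 8) in knockouts and 948814 ± 65989 (SD, n = 6) in controls. Markers of cholangiocytes (3 of 7 higher, summed 1062 to 3634 in knockouts and 667 to 1289 in controls) and of cycling cells (5 of 8 higher, 692 to 2860.1 and 625.1 to 731) had their highest sums in knockouts 3, 6 and 7. Kupffer cell, lymphocyte and erythroid markers gave no call (0 of 8, 0 of 8 and 0 of 4 tested), while 2 of 8 endothelial and 1 of 8 stellate markers were lower. Under equal sums no endothelial or stellate marker was lower, 1 stellate and 1 lymphocyte marker were higher, and 7 cycling cell markers were higher. At that setting 7835 of the 23554 genes tested were called higher and 867 lower. No marker was at 0 in every library. The part of cell composition, or of the 2 knockouts (6 and 7) with a mitochondrial share of 8.62% and 8.98% against 3.26% to 5.93% elsewhere, in the changes of Gnmt, Ahcy and Mettl16 was not tested.

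Among themselves, the 8 genes kept a wide order of levels per kilobase of principal transcript. In controls Gnmt (24284 ± 3527) and Mat1a (21895 ± 6802) led and did not differ beyond their spread, followed by Ahcy at 2039 ± 277 (SD, n = 6). The place of Ahcy is uncertain, since its near copy Gm4737 had 8079.9 ± 3129 in knockouts and 16536 ± 2903 in controls and the split of reads between them is not settled. Mat2b (338 ± 50.6), Fto (289 ± 44.1) and Alkbh5 (283 ± 27.4) formed neighbours within their spread, with Mat2a at 123 and Mettl16 at 19.0 below them. In knockouts Mat1a (18860) stood before Gnmt (13031 ± 5634), again overlapping, then Ahcy (1081 ± 541), Fto (296 ± 38.8), Mat2b (275 ± 75.1) and Alkbh5 (262 ± 23.1). The order of Mat1a and Gnmt in controls, and of Fto, Alkbh5 and Mat2b in both genotypes, changes when merged exons are used as the length.

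The change of none of the 8 genes was called different between Xist-high and Y-positive libraries (limma interaction adjusted p = 0.857 to 0.988, in a fit that called 13 genes, 0.0552% of those tested). The interval was wide for Gnmt (difference of log2 changes -0.06, 95% interval -1.30 to 1.18) and Ahcy (-0.31, -1.62 to 0.99), and narrower for Mettl16 (-0.05, -0.55 to 0.44) and Alkbh5 (0.03, -0.37 to 0.43). A difference of the size of the genotype effect itself is inside the interval in either direction for Gnmt, and in the negative direction only for Ahcy and Mettl16. With 2 Xist-high controls, these livers give little precision on it.

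The genes whose library-to-library pattern was most like each of the 8 were ranked among 9857 protein-coding genes by Pearson correlation of the deviations from the genotype mean over 14 libraries, as a description in which all values share the library's depth and scaling. For Gnmt they were Abhd14b (r = 0.99, and 0.97 over the 11 libraries without knockouts 3, 6 and 7) and Retreg2 (0.98 and 0.96). For Ahcy F7 (0.97 and 0.91) is given, and for Mat1a Agt (0.93 in both) and Prlr (0.92 and 0.90). Mat2a was closest to Matr3 (0.93 and 0.86) and Ints6 (0.91 and 0.79), and Mat2b to Clcn4 (0.85 and 0.88) and Parva (0.83 and 0.85). Mettl16 was closest to Fam20b (0.84 and 0.76) and Usp1 (0.83 and 0.77), Fto to Dhx32 (0.87 and 0.89) and Kat8 (0.87 and 0.84), and Alkbh5 to Aff1 (0.90 and 0.83) and Tomm70a (0.87 and 0.79).

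The enzymes around the methionine cycle were then read from lists of genes, beside 11.5% of all genes called higher and 11.0% called lower. With the deposited scaling, the share called lower was furthest above 11.0% in the folate and choline, methyltransferase and polyamine lists. No test compared a list with all genes. In the methionine cycle and transsulfuration list, 2 of 10 genes were lower and none higher (median log2 change -0.02, against 0.05 over all genes). Adk, the kinase that removes the adenosine released by AHCY, changed by -0.51 (limma adjusted p = 0.00180), and Ahcyl1, an AHCY-like protein, by -0.34 (limma adjusted p = 0.00952). Both calls were lost under equal sums, with Adk at -0.17 (limma adjusted p = 0.245) and Ahcyl1 at -0.00043 (limma adjusted p = 0.997), and that of Adk also under quantile normalization, at -0.25 (limma adjusted p = 0.0556). With the deposited scaling the groups did not overlap for Adk, with 3206 to 4518 in knockouts and 4624 to 5883 in controls. The betaine and folate routes that remethylate homocysteine (Bhmt, Mtr) and transsulfuration (Cbs, Cth) were among the 8 not called. Their changes were unlike in size, at 0.83 for Bhmt, 0.04 for Mtr, -0.65 for Cbs and 0.24 for Cth. The limma adjusted p was 0.0539, 0.903, 0.0792 and 0.313 in the same order. For Cbs, 7 of 8 knockouts lay below the lowest control.

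In folate and choline one-carbon supply, 2 of 24 genes were higher and 7 lower (median -0.14). Aldh1l1, which oxidises formyl-folate, changed by -0.94 (limma adjusted p = 0.00660). Sardh, which oxidises sarcosine, the product of GNMT, changed by -0.84 (limma adjusted p = 0.0281), and Ftcd, of histidine breakdown, by -0.73 (limma adjusted p = 0.0208). Neither was called without knockouts 3, 6 and 7, at -0.45 and -0.50 (limma adjusted p = 0.129 and 0.121), nor under equal sums, at -0.50 and -0.39 (limma adjusted p = 0.107 and 0.0842). Sardh also lost its call without knockout 3 or 7 or control 3, 5 or 6 (limma adjusted p at most 0.0634), and Ftcd without control 3 or 4 (0.0517 and 0.0542).

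Of 14 genes tested in the methyltransferase list, most of which spend S-adenosylmethionine on metabolites, 1 was higher and 5 were lower (median -0.24). Inmt, an indole and thioether methyltransferase, changed by -1.20, Gamt, which makes creatine, by -0.97, and Pemt, which makes phosphatidylcholine, by -0.90 (limma adjusted p = 0.00693, 0.00724 and 0.000491). Pemt was 1140 to 1954 in knockouts and 1925 to 3359 in controls, and Inmt 4430 to 15762 and 12596 to 22618. In polyamine synthesis and methionine salvage 1 of 17 was higher and 5 were lower (median -0.17). Mtap, which starts the return of methylthioadenosine to methionine, rose by 0.99 (limma adjusted p = 0.000438), to 431 to 793 in knockouts against 209 to 363 in controls. Azin1, an inhibitor of antizyme, changed by -0.86 and Apip, a later salvage enzyme, by -0.48 (limma adjusted p = 0.00137 and 0.00694). Apip was not called under equal sums, at -0.14 (limma adjusted p = 0.328). Paox, a polyamine oxidase, changed by -1.02 (limma adjusted p = 0.0216) and lost its call without control 5 (0.0517), without knockouts 3, 6 and 7 (0.0757) and under equal sums (0.0591).

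Among 7 other AlkB family genes, 2 were higher and 1 lower (median 0.21). Alkbh6 changed by -0.82 (limma adjusted p = 0.00255), to 79.4 to 160.0 in knockouts against 154 to 226 in controls, and its call was lost under equal sums at -0.48 (limma adjusted p = 0.0567). Alkbh8, a tRNA-modifying enzyme, changed by 0.42 (limma adjusted p = 0.0292) and lost its call without knockout 4 or 8 or control 4 or 5 (limma adjusted p at most 0.0746), and under quantile normalization (0.0951). Alkbh3, a DNA and RNA repair demethylase, changed by 0.38 (limma adjusted p = 0.0374), but without any 1 of 10 libraries (knockouts 3 and 5 to 8, controls 1, 2 and 4 to 6) it was not called (limma adjusted p at most 0.0771). Of 15 factors that process Mat2a RNA or bind U6, 1 was higher and 2 were lower (median -0.06), shares near those of all genes. Ythdc1, a nuclear m6A reader, rose by 0.29 (limma adjusted p = 0.0145), to 1490 to 1881 in knockouts against 1204 to 1450.4 in controls. Lsm6, of the ring that binds the U6 end, changed by -0.72 (limma adjusted p = 0.00437), with no call under equal sums at -0.39 (limma adjusted p = 0.0521), and Cpsf7, a cleavage factor subunit, by -0.30 (limma adjusted p = 0.0236). Cpsf7 lost its call without control 2 (limma adjusted p = 0.0578) or 4 (0.0560) and turned to 0.04 under equal sums.

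The counts over the lists depended on the libraries and the scaling. Without knockouts 3, 6 and 7 the counts of higher and lower genes were 1 and 2 for the methionine cycle, 3 and 3 for folate and choline, 1 and 4 for methyltransferases, 1 and 3 for polyamines, 1 and 1 for the AlkB family and 1 and 2 for Mat2a RNA processing. Under equal sums they were 3 and 0, 6 and 1, 4 and 3, 3 and 1, 3 and 0, and 2 and 0 in the same order, beside the shift of 0.33 in the median of all genes. Of all 23554 genes tested, 7835 were called higher and 867 lower under equal sums. Without knockouts 3, 6 and 7 the counts over all genes were 2165 higher and 2176 lower. Mtap, Pemt, Gamt, Inmt, Azin1 and Aldh1l1 were called both without these knockouts and under equal sums. Under quantile normalization the list counts were 2 and 1, 2 and 2, 1 and 3, 1 and 4, 1 and 1, and 1 and 3 in the order above. The folate and choline list thus had 2 lower genes in place of 7. Over all genes 2373 were higher and 2410 lower at that setting.

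**Figure D3:**
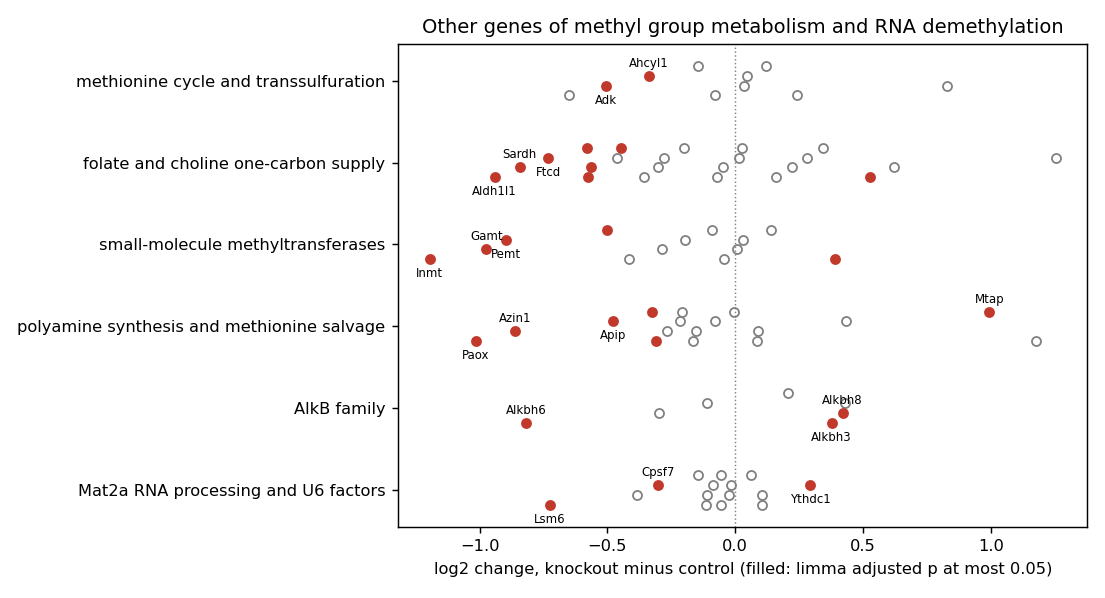
Log2 change (knockout minus control) of the genes tested in 6 lists around methyl group metabolism, the AlkB family and Mat2a RNA processing; each point is a gene, filled where the limma adjusted p is at most 0.05, and large called changes are named; a few genes that are not reported here are left out. Mtap lies to the right at 0.99, Inmt lies farthest to the left at -1.20, and the called methyltransferases and folate enzymes drawn are mostly to the left of 0.

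The authors' deposited table gives the same side of the threshold for the 8 genes, as a natural-log difference of control minus knockout with a q-value: -0.36 (q-value 0.00600) for Mettl16, 0.74 (0.00651) for Ahcy and 0.70 (0.00432) for Gnmt, and q-values of 0.203 to 0.991 for the other 5.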

How the data were processed

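Total RNA from liver was made into stranded libraries and sequenced. The deposited table holds, per the file headers, 1 value per gene and library, with 14 libraries and 54446 genes, and the submitters' processing notes name mm10, kallisto and sleuth. The values are a normalised signal: kallisto estimated counts divided by a size factor per library, as far as the deposited values show. In each library 27.9% to 29.8% of low values were whole multiples of 1 read (within 0.02), so most were not whole reads and no count model was used for the main fit. Approximate reads, from the value taken as 1 read, served for the depth estimates and for the alternative fit with limma voom weights. The deposited p-values and q-values are the authors' Wald test, and the authors' effect is a natural log difference.

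Here, genes reaching 10 in 6 or more libraries were fitted on log2(value + 1) with limma 3.58.1 (R 4.3.3, trended variance, knockout minus control, checked on simulated data), with Benjamini-Hochberg adjustment over 23554 genes and a threshold of 0.05, so that fold changes of low genes are understated. Precision is set by the 8 and 6 libraries, and depth by the 11.1 to 33.8 M (1e6) estimated reads. The files hold a normalised unit, so the count test named as the other option in the plan was not needed. The genes and lists were chosen with earlier results of these data known. The genes named beyond the 8 are the 4 called genes of each list with the largest change, and the 2 genes most like each of the 8, except a few that are not reported here. Cdkn1a, Bhmt, Mtr, Cbs, Cth, Gm4737 and the other copies were named after their values were seen. Alternatives covered the pseudocount, the filter, scaling, weights, leaving out libraries, the replicate number as a block, depth and Xist class.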

Additional observations from a re-analysis of the deposited data

Results flagged for a closer look

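In 3 of 28 sets (the 8 genes, Mettl3, Gm4737, summed Ahcy and 3 ratios, by genotype), 1 library stood far from the others of its genotype by Dixon's gap, and chance flags about 1 in 20 sets. Mettl16 in knockout 7, at 428, was the highest of its group by 0.555 of the group's range. Mat2b in control 3, at 848, stood 0.651 of the range above the other controls. Mat1a in knockout 5, at 113771, stood 0.572 of the range above the other knockouts.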

How the results depend on the processing

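Under equal sums Fto was 0.38 and called, Alkbh5 turned to 0.23, Mat2a to 0.33, Mat2b to 0.0051, Mat1a to 0.12 and Cpsf7 to 0.037, and 7835 genes were higher and 867 lower. Under quantile normalization Alkbh5 was 0.0029, Mat1a 0.38 and Gnmt -0.52 (not called), the Mat2a to Mat1a difference was -0.39 and that of Gnmt to Ahcy 0.33. In Xist-high libraries alone Mettl16 was 0.47, Ahcy -1.24 and Gnmt -1.05, none called, Mat2a was 0.081, and 172 genes were higher and 47 lower; in Y-positive libraries 1740 were higher. At a threshold of 0.01, Ahcy at -1.06 and Gnmt at -1.02 were not called, and 1311 genes were higher and 1358 lower. Fto was -0.067 without knockouts 3, 6 and 7, and Mat2a with its copy 0.0061. The cause was not tested.

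Differences between Xist classes turned sign for Fto (0.039, with the replicate block), Alkbh5 (-0.14 under equal sums, -0.073 under quantile normalization), Mettl16 (0.024 with depth as a covariate), and, without knockouts 3, 6 and 7, Mat2a (-0.0029), Ahcy (0.14) and Gnmt (0.41). Leaving out 1 library at a time, the change was 0.46 to 0.57 for Mettl16, -1.22 to -0.94 for Ahcy and -1.13 to -0.89 for Gnmt, all called, and -0.043 to 0.094 for Fto, -0.063 to 0.031 for Mat2a, -0.16 to -0.079 for Alkbh5, -0.42 to -0.26 for Mat2b and -0.34 to -0.089 for Mat1a, none called. The class differences were -0.14 to 0.20 for Alkbh5, -0.12 to 0.11 for Fto, -0.35 to 0.23 for Gnmt and -0.28 to 0.17 for Mettl16.

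With the replicate number as a block, 2037 genes were higher and 1917 lower and no call among the 8 genes changed (Mettl16 0.46, Ahcy -0.96, Gnmt -1.01). Knockouts 7 and 8 have no control of the same number, so they add nothing to the genotype change in that fit. Ahcyl1, Sardh, Ftcd, Alkbh8, Alkbh3, Cpsf7 and Ythdc1 were not called with the block (limma adjusted p = 0.0521, 0.0587, 0.0581, 0.117, 0.140, 0.133 and 0.0872), and the folate list had 3 lower genes in place of 7, the AlkB list 0 higher in place of 2. Equal numbers correlated at 0.07 to 0.23 (5 of 6 over 0.1), and 2 of 6 controls correlated best with their own number, so the numbers were not read as pairs. The settings without knockouts 3, 6 and 7 were planned; summing copies, and the other settings for that sum, were chosen after seeing the data. The Xist-high libraries had the lower depth, 11.1 to 19.3 M reads, and 2 controls.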
